A study of Mus musculus with 8 samples.

Results

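The clustered histone genes were examined in polyadenylated RNA from mouse samples labelled adipocytes. Members were all protein-coding genes whose GRCm38-era symbol starts with Hist1h, Hist2h, Hist3h or Hist4h, which gave 65 of the 49671 gene rows. They comprised 6 genes for the linker histone H1, 18 for H2A, 16 for H2B, 12 for H3 and 13 for H4. The Hist1 cluster on chromosome 13 held 52 of them, Hist2 on chromosome 3 held 10, Hist3 on chromosome 11 held 2 and Hist4 on chromosome 6 held 1. Pseudogenes with such symbols were left out, and Hist1h2bm and Hist1h2bh were not analysed here. The members were taken by symbol, but the family itself was chosen by its measured levels, the difference between BMPR2 DELX and ROSA in these same libraries. Its values below therefore describe these libraries, and its adjusted p-values are not independent evidence.

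The study compared 4 samples from BMPR2 DELX mutant mice with 4 samples from ROSA mice, its control. Bmpr2 encodes the type II bone morphogenetic protein receptor. The labels give neither the meaning of DELX, nor the allele's driver, the age of the mice or any treatment, and they name no separate animals within a group. The p-values therefore rest on the spread between these samples, which may be technical. Total counts per sample ran from 28799445 to 43684785.

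Genes of these clusters supply most of the core and linker histones that package newly replicated DNA. Their mRNAs are made mainly in S phase and usually end in a conserved stem-loop without a poly(A) tail. The stem-loop is bound by SLBP, and the pre-mRNA is cleaved a few bases downstream of it with the help of U7 snRNA. Some clustered genes also give polyadenylated transcripts, which are known from differentiated cells and end at poly(A) sites beyond the stem-loop. A library of polyadenylated RNA therefore samples a minor form of most of these messages, and levels given here are not those of total histone mRNA.

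The stem-loop is shown because it forms the usual 3′ end of these messages. A 16-letter pattern, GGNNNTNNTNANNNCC with a paired stem of 6 base pairs (G-U pairs allowed), was searched on the transcript strand in the annotated 3′ ends. It was found in 44 of 65 members, 67.7%, and in 138 of 21801 other protein-coding genes, 0.633%. Of the 21 members without it, 17 have under 50 annotated bases after the stop codon, so that these letters lie outside the annotated model or are absent. The stem-loops of 7 members described below follow, with the 16 letters in capitals and 5 flanking bases on either side in lower case, 5′ to 3′ (coordinates of the capitals on GRCm38, sequences from the GENCODE M21 transcripts).
Hist1h3b, chr13:23752820-23752835, plus strand: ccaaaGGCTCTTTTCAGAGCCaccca
Hist1h2ab, chr13:23751572-23751587, plus strand: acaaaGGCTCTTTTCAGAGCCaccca
Hist1h2be, chr13:23585531-23585546, minus strand: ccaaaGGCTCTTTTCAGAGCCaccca
Hist1h1c, chr13:23739512-23739527, plus strand: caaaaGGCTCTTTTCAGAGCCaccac
Hist1h4n, chr13:21831798-21831813, minus strand: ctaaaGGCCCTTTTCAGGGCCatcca
Hist1h4i, chr13:22040966-22040981, minus strand: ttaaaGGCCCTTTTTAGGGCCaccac
Hist1h4a, chr13:23760800-23760815, minus strand: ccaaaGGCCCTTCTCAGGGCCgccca
The 44 stem-loops took 8 distinct sequences. All 32 outside the H4 genes began with GGCTC, whereas none of the 12 in H4 genes did. Hist1h3b, the tested member with the lowest log2 fold change, and Hist1h1c, whose groups overlapped, carried the same 16 letters.

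Samples were compared on the counts of the opposite-strand column, which held 94.5% of the stranded counts over the members. Levels are counts per 1000000 counts (CPM) after scaling by trimmed mean of M values. In ROSA 1, 21.95% of reads were assigned to no gene, against 14.7% to 17.3% in the other libraries. Arc, an immediate-early gene, was at 2.03 to 4.56 CPM in the BMPR2 DELX libraries against 29.6, 62.1, 11.6 and 6.51 CPM in the ROSA libraries, in order of number. Results are therefore also given without ROSA 1 and ROSA 2, a setting chosen after the values were seen. Bmpr2 was at 211 ± 17.6 CPM in BMPR2 DELX samples and 197 ± 17.0 CPM in ROSA samples (SD, n = 4 each), with a log2 fold change of 0.10 ± 0.08 (SE, edgeR adjusted p = 0.471). Whole-gene counts need not show the loss of an exon, so this value does not check the labels.

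Markers fixed for the labelled cell type and for other cell types moved with the groups in part. Among 10 adipocyte markers, 5 never exceeded 3 counts in a library, namely Retn, Lep, Cfd, Plin1 and Cidec, and Adipoq averaged 0.0754 CPM in the BMPR2 DELX samples and 0.0415 CPM in the ROSA samples. The adipocyte list summed to 252 to 308 CPM in BMPR2 DELX libraries and to 201 to 234 CPM in ROSA libraries. This separation came from Lpl, lipoprotein lipase, at 210 ± 34.5 CPM in BMPR2 DELX samples and 140 ± 17.7 CPM in ROSA samples (edgeR adjusted p = 0.0241). Without Lpl the list summed to 56.9 to 80.04 CPM in BMPR2 DELX libraries and 66.3 to 90.7 CPM in ROSA libraries. The 8 fibroblast markers summed to 10598 to 15503 CPM in BMPR2 DELX libraries and 9800 to 12059 CPM in ROSA libraries, and the 6 other than Col1a1 and Col1a2 to 1915 to 2416 CPM in BMPR2 DELX libraries and 1312 to 1568 CPM in ROSA libraries. Among them Col3a1, a fibrillar collagen gene, was at 1146 ± 185 CPM in BMPR2 DELX samples and 481 ± 49.2 CPM in ROSA samples (edgeR adjusted p = 0.00131). Of the 7 tested fibroblast markers only Col3a1 passed, and sums without it were not taken. Thy1, the only 1 with a negative log2 fold change, was at 211 ± 81.6 CPM in BMPR2 DELX samples. In ROSA samples Thy1 was at 308 ± 78.3 CPM, with overlapping groups. The 5 endothelial markers summed to 271 to 1182 CPM in BMPR2 DELX libraries and 527 to 1211 CPM in ROSA libraries. The 7 epithelial markers summed to 10.7 to 47.9 CPM in BMPR2 DELX libraries and 4.66 to 16.1 CPM in ROSA libraries, and the 8 leukocyte and macrophage markers to 13.6 to 32.0 CPM in BMPR2 DELX libraries and 5.50 to 12.4 CPM in ROSA libraries. Of these lists Pax8 and Cd68 were higher in BMPR2 DELX samples by the edgeR test, with log2 fold changes of 3.38 ± 0.87 and 0.72 ± 0.16 (adjusted p = 0.0467 and 0.0238). Pax8 was uneven, at 0.884, 1.92, 4.49 and 0.290 CPM in BMPR2 DELX 1 to BMPR2 DELX 4. Its ROSA libraries were at 0.0584 to 0.315 CPM, so BMPR2 DELX 4 lay within their range. The part of these cell types in the results below was not tested. In such bulk samples, fewer cells of a type and less RNA per cell cannot be told apart.

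The summed level of the 65 members was lower in BMPR2 DELX samples. It was 82.8, 96.1, 86.9 and 124.8 CPM in BMPR2 DELX 1 to BMPR2 DELX 4, against 149.4, 156.3, 135.2 and 135.3 CPM in ROSA 1 to ROSA 4. All 4 BMPR2 DELX libraries lay below the lowest ROSA library, and BMPR2 DELX 4 was the nearest to it. The means were 97.6 ± 18.9 CPM in BMPR2 DELX samples and 144 ± 10.6 CPM in ROSA samples (SD, n = 4 each), a ratio of 0.678. Hist1h1c and Hist1h2bc alone made up 71.9% of the members' counts. Without both genes the sums were 25.1 ± 3.54 CPM in BMPR2 DELX samples and 43.3 ± 4.29 CPM in ROSA samples, a ratio of 0.580, and the groups again did not overlap.

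**Figure D1:**
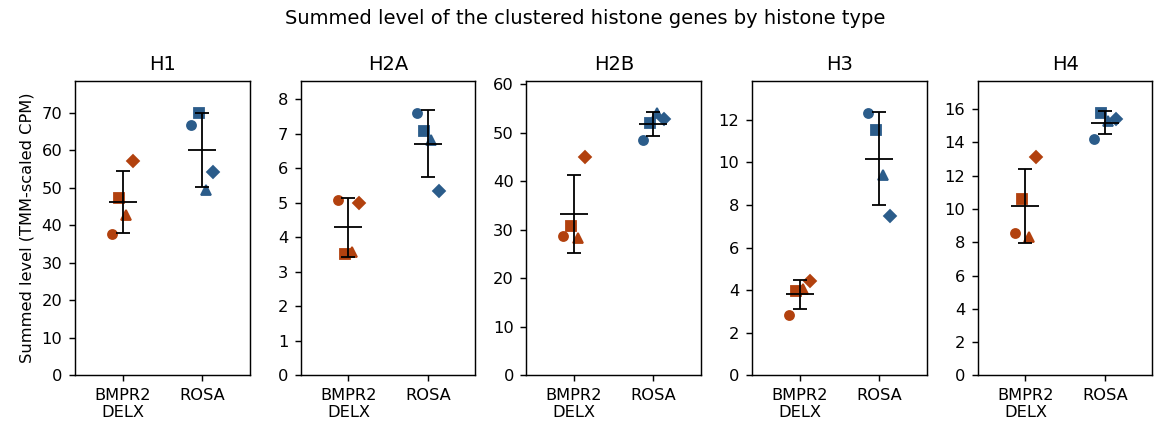
Summed level of the clustered histone genes in each library, for each histone type. Levels are in CPM on axes that start at 0, and points are libraries, BMPR2 DELX left of ROSA. The H3 sums were 2.85 to 4.42 CPM in BMPR2 DELX libraries and 7.47 to 12.3 CPM in ROSA libraries, while the H1 sums of the groups overlapped.

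Most members were scarce. On average over the 8 libraries, 11 members reached 1 CPM and 25 were under 0.1 CPM. In all libraries 4 members, Hist2h2aa1, Hist2h3c1, Hist1h2bq and Hist1h2br, were at 0 counts, where up to 3 counts (0.0687 to 0.104 CPM) cannot be told from 0, a limit that covers counting error only. Of the 50-base windows of these 4 genes, 88.7% to 100% also occur in another gene's transcript, and Gm20634 overlaps Hist2h2aa1 and Hist2h3c1 on the same strand, so that 0 counts do not give their level. The filter on low counts kept 29 members for the test and left out 36. A member could pass it through the ROSA libraries alone, so counts over the tested members describe those genes and not the family. Of the 61 members with counts, 49 had a lower and 12 a higher mean in BMPR2 DELX samples. Of these, the 32 untested ones divided into 21 lower and 11 higher.

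Among the 29 tested members, 7 passed an edgeR adjusted p below 0.05 with lower levels in BMPR2 DELX samples and 0 with higher levels. Over all 14887 genes tested, 9.10% passed, 5.15% lower and 3.96% higher. The log2 fold change of BMPR2 DELX over ROSA was negative in 28 of the 29, against 49.3% of all genes tested. Its median was -0.61 in the tested members and 0.0045 over all genes tested. An unadjusted p below 0.05 was reached by 18 of the 29, all lower, against 26.3% of all genes tested. The groups did not overlap, with BMPR2 DELX lower, in 12 of the 29, against 9.65% of all genes tested, and they did not overlap in the other direction in 0, against 8.32%. Because this contrast led to the choice of the family, nothing further is read from these shares. Without ROSA 1 and ROSA 2, 1 member, Hist1h3b, passed, and 172 genes did so over the whole table. Without ROSA 2 alone 4 members passed, and without BMPR2 DELX 4 alone 10 did.

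Histone H3, a core histone, had the lowest ratio of BMPR2 DELX over ROSA of the 5 types, though the difference between types was not tested. Its 12 genes summed to 3.82 ± 0.678 CPM in BMPR2 DELX samples and 10.2 ± 2.19 CPM in ROSA samples (SD, n = 4 each), a ratio of 0.375. Much of this came from Hist1h3b. The other 11 genes summed to 2.96 ± 0.586 CPM in BMPR2 DELX samples and 5.76 ± 1.21 CPM in ROSA samples. Their ratio was 0.513, without overlap. Of the 6 tested H3 genes, 2 passed the test, both lower. Hist1h3b (ENSMUSG00000069267, chr13:23752267-23752886, plus strand, 1 exon) had 0.753, 0.846, 0.822 and 1.03 CPM in BMPR2 DELX 1 to BMPR2 DELX 4, against 5.22, 5.07, 4.56 and 2.83 CPM in ROSA 1 to ROSA 4. All BMPR2 DELX libraries were below all ROSA libraries, and ROSA 4 was the lowest of its group. Its log2 fold change was -2.35 ± 0.23 (SE, edgeR adjusted p = 0.00131), and these levels came from 23 to 46 counts in BMPR2 DELX and 97 to 209 counts in ROSA libraries. Hist1h3i (chr13:21782960-21783370, minus strand) had 0.229, 0.169, 0.205 and 0.313 CPM in the BMPR2 DELX libraries, against 0.932, 0.874, 0.599 and 0.584 CPM in the ROSA libraries. The groups were separate, at 6 to 14 counts in BMPR2 DELX and 18 to 36 counts in ROSA libraries, with a log2 fold change of -1.68 ± 0.30 (edgeR adjusted p = 0.0120). In Hist1h3i 87.6% of the 50-base windows also occur in another gene's transcript, so its counts are uncertain.

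Hist2h3c2, an H3 gene of the chromosome 3 cluster, had 0.524, 0.423, 1.06 and 1.39 CPM in the BMPR2 DELX libraries, against 2.24, 1.92, 1.53 and 1.84 CPM in the ROSA libraries. The groups did not overlap, but BMPR2 DELX 3 and BMPR2 DELX 4 lay nearer to ROSA, and its log2 fold change of -1.13 ± 0.35 did not pass (edgeR adjusted p = 0.0711, and 0.0339 without BMPR2 DELX 4). Hist1h3c was chosen after its values were seen, because 1 library decides its call. It had 0.229, 0.395, 0.411 and 0.179 CPM in the BMPR2 DELX libraries, against 1.15, 1.19, 0.798 and 0.204 CPM in the ROSA libraries. ROSA 4 was within the BMPR2 DELX range, and the edgeR adjusted p was 0.0992 with it and 0.0194 without it.

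**Figure D2:**
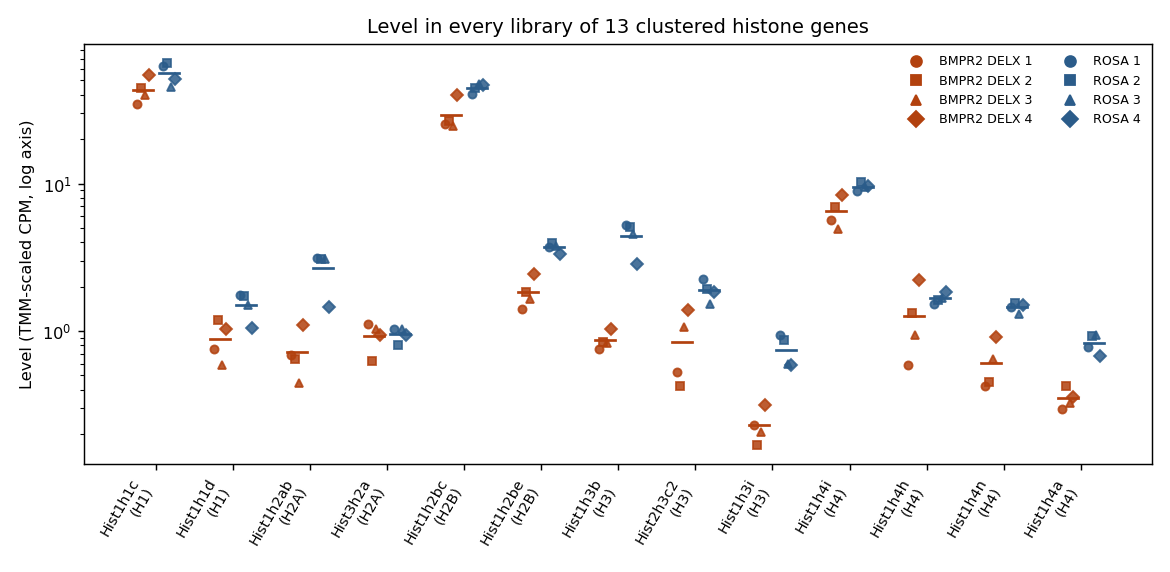
Level of each named member in each library, in CPM on a log axis; points are libraries, BMPR2 DELX left of ROSA. Hist1h3b was at 0.753 to 1.03 CPM in BMPR2 DELX libraries and 2.83 to 5.22 CPM in ROSA libraries, and Hist3h2a was at 0.620 to 1.11 CPM in BMPR2 DELX libraries and 0.801 to 1.03 CPM in ROSA libraries.

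The 18 genes of H2A, which pairs with H2B in the nucleosome core, summed to 4.29 ± 0.853 CPM in BMPR2 DELX samples and 6.71 ± 0.974 CPM in ROSA samples, a ratio of 0.639. The separation of the groups came from Hist1h2ab: the other 17 genes summed to 3.57 ± 0.691 CPM in BMPR2 DELX samples and 4.03 ± 0.338 CPM in ROSA samples, a ratio of 0.887 with overlapping groups. Of the 7 tested H2A genes, 1 passed the test, with a lower level. This was Hist1h2ab (ENSMUSG00000061615, chr13:23751126-23751598, plus strand), with 0.687, 0.648, 0.440 and 1.09 CPM in the BMPR2 DELX libraries, against 3.11, 3.08, 3.09 and 1.46 CPM in the ROSA libraries. The groups did not overlap, and ROSA 4 lay close to BMPR2 DELX 4. Its log2 fold change was -1.88 ± 0.33 (edgeR adjusted p = 0.0107, and 0.104 without ROSA 1 and ROSA 2). Hist1h2ab and Hist1h3b are neighbours on the plus strand, and in both ROSA 4 was the lowest ROSA library.

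Hist3h2a, the H2A gene of the Hist3 cluster, had 1.11, 0.620, 1.03 and 0.939 CPM in the BMPR2 DELX libraries, against 1.03, 0.801, 1.03 and 0.934 CPM in the ROSA libraries. The groups overlapped throughout, with a log2 fold change of -0.03 ± 0.24 (edgeR adjusted p = 0.945) whose sign turned under upper-quartile factors. Its exons overlap Trim17 on the same strand over 33.0% of their length. Hist1h2ak was the only tested member with a positive log2 fold change, and was chosen after its values were seen. It had 1.28, 0.902, 0.499 and 0.693 CPM in the BMPR2 DELX libraries, against 0.590, 0.510, 0.665 and 0.438 CPM in the ROSA libraries. The groups overlapped, and its log2 fold change of 0.61 ± 0.31 did not pass (edgeR adjusted p = 0.251). The untested H4 gene Hist1h4k, which starts within 4 kb of it and was also chosen after its values were seen, had 9, 9, 8 and 10 counts in the BMPR2 DELX libraries and 8, 2, 2 and 2 counts in the ROSA libraries.

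The 16 genes of H2B summed to 33.2 ± 8.0 CPM in BMPR2 DELX samples and 51.9 ± 2.42 CPM in ROSA samples, a ratio of 0.641, and most of this level was Hist1h2bc. The other 15 genes summed to 4.14 ± 0.722 CPM in BMPR2 DELX samples and 7.28 ± 0.736 CPM in ROSA samples. Their ratio was 0.569, without overlap. Of the 6 tested H2B genes, 2 passed the test, both lower. Hist1h2be (ENSMUSG00000047246, chr13:23583670-23621124, minus strand) had 1.41, 1.83, 1.64 and 2.44 CPM in the BMPR2 DELX libraries, against 3.70, 3.93, 3.79 and 3.33 CPM in the ROSA libraries. The groups were separate, with a log2 fold change of -1.0 ± 0.19 (edgeR adjusted p = 0.0134, and 0.112 without ROSA 1 and ROSA 2). The model of Hist1h2be overlaps that of Hist1h1e on the same strand, so reads there could not be assigned to either gene. Hist1h2bc (ENSMUSG00000018102, chr13:23684199-23692908, plus strand, 2 exons) had 25.4, 26.6, 24.4 and 40.0 CPM in the BMPR2 DELX libraries, against 40.5, 44.3, 47.1 and 46.5 CPM in the ROSA libraries. BMPR2 DELX 4 lay just under ROSA 1, the lowest of its group. The log2 fold change was -0.61 ± 0.15 (edgeR adjusted p = 0.0358), and the call was lost in 7 of the 8 fits that leave out 1 library, all but the one without BMPR2 DELX 4, with adjusted p of 0.0644 to 0.0941. Hist1h2bj, chosen after its values were seen, had 0.131, 0.113, 0.117 and 0.268 CPM in the BMPR2 DELX libraries, against 0.497, 0.364, 0.299 and 0.584 CPM in the ROSA libraries. These groups did not overlap, and its edgeR adjusted p was 0.0502, and 0.0347 without BMPR2 DELX 4.

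The 13 genes of H4, which pairs with H3, summed to 10.2 ± 2.23 CPM in BMPR2 DELX samples and 15.2 ± 0.673 CPM in ROSA samples, a ratio of 0.669. The 12 genes other than Hist1h4i had a ratio of 0.652, without overlap. Of the 5 tested H4 genes, 2 passed the test, both lower. Hist1h4a (chr13:23760692-23761230, minus strand) had 0.295, 0.423, 0.323 and 0.358 CPM in the BMPR2 DELX libraries, against 0.777, 0.922, 0.931 and 0.671 CPM in the ROSA libraries. The groups were separate, with a log2 fold change of -1.23 ± 0.24 (edgeR adjusted p = 0.0169, and 0.0589 without ROSA 2). Hist1h4n (chr13:21831767-21832196, minus strand) had 0.425, 0.451, 0.646 and 0.916 CPM in the BMPR2 DELX libraries, against 1.46, 1.55, 1.30 and 1.49 CPM in the ROSA libraries. These groups were also separate, with a log2 fold change of -1.23 ± 0.27 (edgeR adjusted p = 0.0230). That call was lost without BMPR2 DELX 2, ROSA 1 or ROSA 2, with adjusted p of 0.0608, 0.0565 and 0.0710, and 85.6% of the gene's 50-base windows occur in other transcripts.

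Hist1h4i, the most abundant H4 gene, had 5.69, 6.88, 4.90 and 8.40 CPM in the BMPR2 DELX libraries, against 8.86, 10.2, 9.48 and 9.57 CPM in the ROSA libraries. The groups did not overlap, but its log2 fold change of -0.56 ± 0.16 did not pass (edgeR adjusted p = 0.0554, and 0.0203 without BMPR2 DELX 4). Hist1h4h had 0.589, 1.33, 0.939 and 2.21 CPM in the BMPR2 DELX libraries, against 1.52, 1.63, 1.66 and 1.84 CPM in the ROSA libraries. BMPR2 DELX 4 was above all ROSA libraries, and the log2 fold change of -0.37 ± 0.34 did not pass (edgeR adjusted p = 0.526). In Hist2h4, chosen after its values were seen, the ROSA libraries divided into a lower pair, ROSA 1 at 0.186 CPM and ROSA 2 at 0.243 CPM, and a higher pair, ROSA 3 at 0.964 CPM and ROSA 4 at 0.817 CPM. Its BMPR2 DELX libraries, at 0.451 to 0.616 CPM, lay between these pairs.

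The 6 genes of H1, the linker histone that binds where DNA enters and leaves the nucleosome, summed to 46.1 ± 8.33 CPM in BMPR2 DELX samples and 60.1 ± 9.83 CPM in ROSA samples, a ratio of 0.768. The groups overlapped, and 0 of the 5 tested H1 genes passed the edgeR test, and likewise 0 passed by DESeq2 and by limma voom, while 3 had an unadjusted p below 0.05 by edgeR. Without ROSA 4, 1 of them, Hist1h1a, was called lower. The 5 H1 genes other than Hist1h1c summed to 2.73 ± 0.162 CPM in BMPR2 DELX samples and 3.96 ± 0.709 CPM in ROSA samples, without overlap. Hist1h1c (ENSMUSG00000036181, chr13:23738808-23740367, plus strand), the most abundant member, had 34.9, 44.5, 39.7 and 54.6 CPM in the BMPR2 DELX libraries, against 62.2, 65.6, 45.4 and 51.3 CPM in the ROSA libraries. BMPR2 DELX 4 was above ROSA 3 and ROSA 4, and the log2 fold change of -0.37 ± 0.15 did not pass (edgeR adjusted p = 0.165). Hist1h1d had 0.753, 1.18, 0.587 and 1.03 CPM in the BMPR2 DELX libraries, against 1.74, 1.72, 1.5 and 1.05 CPM in the ROSA libraries. BMPR2 DELX 2 lay above ROSA 4, and its log2 fold change of -0.75 ± 0.27 did not pass either (edgeR adjusted p = 0.111). The testis-type members Hist1h1t, Hist1h2aa and Hist1h2ba had 4, 1 and 1 counts in all 8 libraries together.

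**Figure D3:**
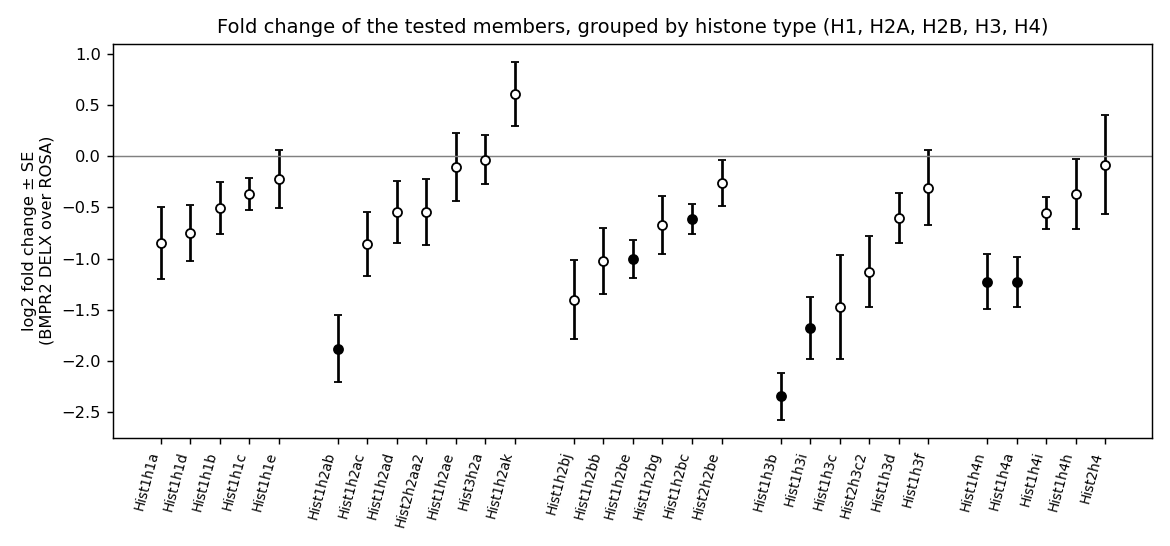
Log2 fold change of BMPR2 DELX over ROSA for the 29 tested members by histone type; each point is a gene and bars are its SE. The tested H3 genes ran from -2.35 to -0.31, H2A genes from -1.88 to 0.61, H2B genes from -1.40 to -0.26, H4 genes from -1.23 to -0.08 and H1 genes from -0.85 to -0.22.

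Per kilobase of annotated exon, the same 3 members were highest in both groups. Hist1h1c stood at 27.8 CPM per kb in BMPR2 DELX and 36.0 CPM per kb in ROSA samples, and Hist1h2bc at 25.2 CPM per kb in BMPR2 DELX and 38.6 CPM per kb in ROSA samples. Their order turned between the groups, within the spread of the libraries. Hist1h4i came next, at 8.90 CPM per kb in BMPR2 DELX and 13.1 CPM per kb in ROSA samples. Hist1h3b was at 1.39 CPM per kb in BMPR2 DELX and 7.13 CPM per kb in ROSA samples, and Hist1h2ab at 1.52 CPM per kb in BMPR2 DELX and 5.68 CPM per kb in ROSA samples. In BMPR2 DELX samples Hist1h3b ranked 8 and Hist1h2ab ranked 6, below Hist1h4h at 2.69 and Hist1h2ak at 2.14 CPM per kb. In ROSA samples Hist1h3b ranked 4 and Hist1h2ab ranked 5.

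Members were also set against how far their annotated model runs past the stem-loop, a feature that their selection by symbol did not use. The 22 members annotated for 100 bases or more beyond it, among them Hist1h1c with 840 bases, summed to 59.3 ± 10.8 CPM in BMPR2 DELX samples and 80.6 ± 10.2 CPM in ROSA samples, a ratio of 0.736 with overlapping groups. The 22 members annotated for under 100 bases beyond it, among them Hist1h3b with 51 and Hist1h2ab with 11 bases, summed to 5.73 ± 1.47 CPM in BMPR2 DELX samples and 14.5 ± 2.37 CPM in ROSA samples, a ratio of 0.394 without overlap. In the 21 members with no stem-loop in the annotated 3′ end, which include Hist1h2bc with 742 annotated bases after the stop codon, the sums were 32.6 ± 7.13 CPM in BMPR2 DELX samples and 49.0 ± 2.32 CPM in ROSA samples, a ratio of 0.666. Single genes weigh on these sums. Of the 14.5 CPM for under 100 bases in ROSA samples, Hist1h3b held 4.42 and Hist1h2ab 2.69. Among BMPR2 DELX samples their means were 0.862 and 0.718, out of 5.73 CPM. Hist1h1c supplied 56.1 of the 80.6 CPM for 100 bases or more in ROSA samples, and 43.4 of 59.3 CPM in BMPR2 DELX samples. The ratios therefore depend on these genes, and sums without them were not taken. The difference between these sets of genes was not tested. Over the tested genes the median log2 fold change was -0.58 for 14 of 22 long extensions, -1.23 for 9 of 22 short ones and -0.56 for 6 of 21 without a stem-loop. A member could pass the filter through the ROSA libraries alone, so these medians describe the tested genes and do not compare the sets. The sets also differed in shared sequence, with a median of 24.7%, 63.1% and 85.8% of 50-base windows found in other transcripts, in the same order.

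Along chromosome 13 the lower levels were not limited to 1 stretch of the Hist1 cluster, which spans chr13:21715763-23934851. The cluster was divided by position into 4 stretches, with limits set by hand. Summed CPM gave ratios of BMPR2 DELX over ROSA of 0.667, 0.663, 0.659 and 0.680. The groups did not overlap in any of these stretches. Few genes lead such sums, Hist1h4i in the stretch at 0.663, and Hist1h1c and Hist1h2bc in that at 0.680. Of 4, 2, 9 and 9 tested members, in the same order, 2, 0, 1 and 4 passed the edgeR test, all lower. The median log2 fold changes of the tested members were -0.87, -0.98, -0.55 and -1.02. The 52 Hist1 members together had a ratio of 0.677 and the 10 Hist2 members on chromosome 3 one of 0.648, both without overlap. The 2 Hist3 members on chromosome 11 gave 0.960, with overlapping groups, and Hist4h4 on chromosome 6 had 0 to 5 counts per library. Between the outermost Hist1 members lie 6 other tested genes, Zfp184, Prss16, Zfp322a, Abt1, Btn1a1 and Hfe. Of these 0 passed the edgeR test and 2 had an unadjusted p below 0.05, with a median log2 fold change of -0.13 and single values of -1.66 ± 0.54 for Btn1a1 and 0.71 ± 0.23 for Hfe (adjusted p = 0.0856 and 0.0826). By DESeq2 1 passed with a lower and 1 with a higher level, and by edgeR 1 passed with a higher level without BMPR2 DELX 3.

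**Figure D4:**
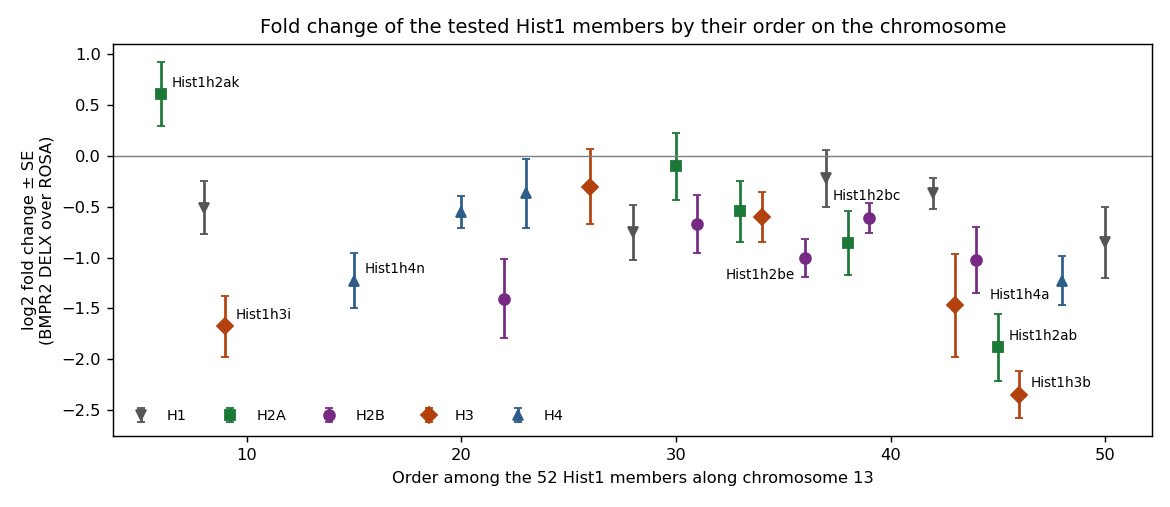
Log2 fold change of BMPR2 DELX over ROSA for the 24 tested Hist1 members by their order along chromosome 13; points are genes, bars are SE, and symbols give the histone type. Hist1h2ak, at 0.61, is the only point above 0, and Hist1h3b and Hist1h2ab, side by side, are the lowest at -2.35 and -1.88.

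Promoter windows from RefSeq (GRCm38.p6, 250 bases before to 50 after the start) matched 59 of 65 members and were searched on both strands. TATAAA was found in 57.6% of the members' windows against 13.6% of all 32851 windows, and CCAAT in 84.7% against 37.4%. CCAAT was in every H1, H2A, H2B and H3 window and in 3 of 12 H4 windows. The octamer ATGCAAAT was found in 20.3% of members, all H2A or H2B, against 1.74% of all windows. Windows of neighbours on opposite strands can overlap, as those of Hist1h2ae and Hist1h2bg do. The same match of any of these motifs can therefore count for both genes. AAACACA, a sequence known from H1 promoters, was found in 4 of 5 H1 windows and in 7.18% of all windows. The 120 bases before the RefSeq start are shown for an H2A, an H3 and an H4 gene that passed the test, with the motifs named above in capitals, read on either strand.
Hist1h2ab, chr13:23750968-23751087, plus strand: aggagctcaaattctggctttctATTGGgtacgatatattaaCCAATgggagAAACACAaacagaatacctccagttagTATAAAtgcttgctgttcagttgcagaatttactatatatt
Hist1h3i, chr13:21783398-21783517, minus strand: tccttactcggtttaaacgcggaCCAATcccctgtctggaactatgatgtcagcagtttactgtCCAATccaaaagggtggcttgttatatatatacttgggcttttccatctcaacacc
Hist1h4n, chr13:21832198-21832317, minus strand: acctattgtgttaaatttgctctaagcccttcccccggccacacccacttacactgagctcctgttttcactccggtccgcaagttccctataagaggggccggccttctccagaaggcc
The stretches of Hist1h2ab and Hist1h3i hold a pair of CCAAT letters, read on either strand, and that of Hist1h2ab also holds the motif of H1 promoters. None of the letters searched is in the stretch of Hist1h4n. TATAAA is in the longer window of all 3 genes, on either strand, but in Hist1h3i and Hist1h4n not within the 120 bases shown. The search did not use the place of a match in the window. A match is a run of letters and was not tested as a binding site.

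Other histone genes and genes of histone supply were set beside the members. Histone genes outside the clusters, most of them replication-independent with ordinary poly(A) signals, numbered 11, all tested. Of these 4 were higher in BMPR2 DELX samples by the edgeR test, against 3.96% of all genes tested, and 0 lower, against 5.15%. Their median log2 fold change was 0.19. The number higher was 2 to 5 with 1 library left out, lowest without BMPR2 DELX 2 or ROSA 2, and it was 1 without ROSA 1 and ROSA 2. H2afy2, which encodes a macroH2A, was at 14.6 ± 1.16 CPM in BMPR2 DELX samples and 8.75 ± 0.790 CPM in ROSA samples, with a log2 fold change of 0.74 ± 0.10 (edgeR adjusted p = 0.00374). H1f0, the linker histone of non-dividing cells, was at 68.3 ± 9.88 CPM in BMPR2 DELX samples and 47.2 ± 4.34 CPM in ROSA samples, with a log2 fold change of 0.53 ± 0.11 (adjusted p = 0.0191). H1fx, another linker histone, and H2afv, an H2A.Z-type variant, had log2 fold changes of 0.53 ± 0.10 and 0.39 ± 0.09 (edgeR adjusted p = 0.0152 and 0.0257). H2afj, chosen after its values were seen, was at 49.7 CPM in BMPR2 DELX samples against 62.6 CPM in ROSA samples and did not pass (edgeR adjusted p = 0.0511), but it was called lower by DESeq2, by limma voom, with no count filter, with a filter at 1 CPM, in the unstranded column, with the replicate number as a block and without BMPR2 DELX 4. The sums of this list were 690 ± 58.5 CPM in BMPR2 DELX samples and 644 ± 51.1 CPM in ROSA samples, and these overlapped.

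Of 16 tested genes for histone transcription and histone mRNA processing, 0 passed the edgeR test in either direction, 0 passed by DESeq2 and 1 had an unadjusted p below 0.05. The median log2 fold change was 0.03. Over all genes tested, 9.10% passed the edgeR test and 26.3% had an unadjusted p below 0.05. Slbp, which encodes the stem-loop binding protein, was at 31.6 ± 2.71 CPM in BMPR2 DELX samples and 30.4 ± 1.71 CPM in ROSA samples. Npat, the coactivator of clustered histone transcription, was at 38.6 ± 4.58 CPM in BMPR2 DELX samples and 38.6 ± 1.93 CPM in ROSA samples. Both genes were chosen for their role and not by the rule for named genes, which took Lsm11, a subunit of the U7 particle, with a log2 fold change of 0.20 ± 0.08 (edgeR adjusted p = 0.147). Of 15 histone chaperone genes 0 passed by edgeR or DESeq2 and 0 had an unadjusted p below 0.05 by edgeR, with a median log2 fold change of 0.06. Without BMPR2 DELX 4, 1 of them was higher.

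Of 27 genes for DNA replication and S phase, 1 passed the edgeR test, against 9.10% of all genes tested. This was Lig1, DNA ligase I. It was at 45.3 ± 7.18 CPM in BMPR2 DELX samples and 33.5 ± 2.10 CPM in ROSA samples, with a log2 fold change of 0.44 ± 0.11 (adjusted p = 0.0379). The 27 log2 fold changes had a median of 0.18, and of 0.28 without BMPR2 DELX 4. Of them 23 were positive and 4 negative. By edgeR 9 genes were higher and 1 lower at an unadjusted p below 0.05, against 26.3% of all genes tested in either direction. Without ROSA 1 and ROSA 2 these counts were 1 and 0. With the replicate number as a block 1 gene of the list was called lower. The count higher was 5 by DESeq2 and 8 by edgeR without BMPR2 DELX 4, and it was 0 in each of the other 7 fits without 1 library and without ROSA 1 and ROSA 2. Over all genes tested, 1070 of 14887 were higher by DESeq2, and 478 of 15128 by edgeR without BMPR2 DELX 4. Tk1, thymidine kinase, and Ccna2, cyclin A2, had log2 fold changes of 0.45 ± 0.14 and 0.54 ± 0.17 and did not pass (edgeR adjusted p = 0.0671 and 0.0776). Summed levels were 1787, 1615, 1606 and 1286 CPM in BMPR2 DELX 1 to BMPR2 DELX 4, against 1373, 1423, 1517 and 1316 CPM in ROSA 1 to ROSA 4. BMPR2 DELX 4, the mutant library with the highest sum of clustered histone genes, had the lowest sum of this list among the 8 libraries.

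**Figure D5:**
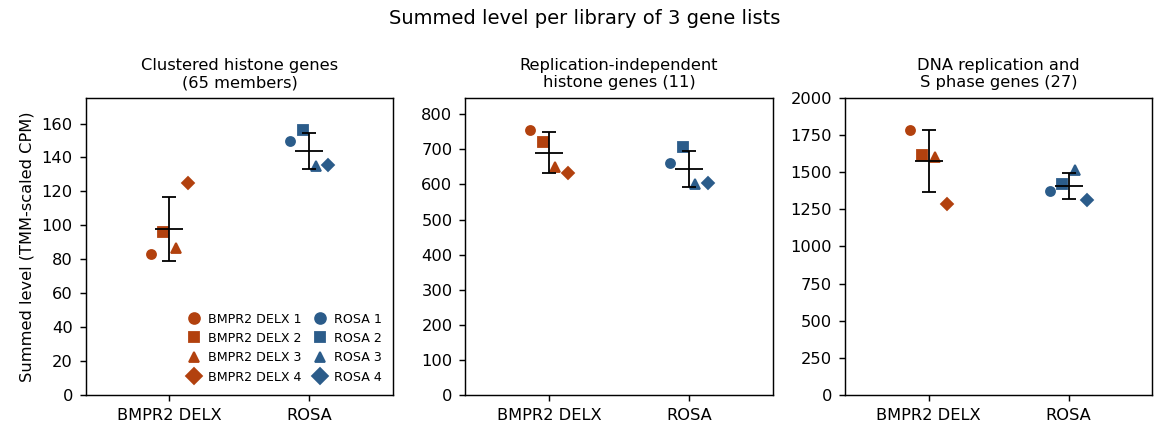
Summed level in each library of the clustered histone genes, the histone genes outside the clusters, and the DNA replication and S phase genes. Levels are in CPM on axes that start at 0, and points are libraries, BMPR2 DELX left of ROSA. The groups are separate for the clustered genes, at 82.8 to 124.8 CPM in BMPR2 DELX libraries and 135.2 to 156.3 CPM in ROSA libraries, and overlap for each of the other lists.

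Near-identical copies limit how these counts can be assigned to single genes. Of the 50-base windows of a member's exons, a median of 55.0% also occurred in another gene's annotated transcript. The share was 50% or more in 34 members, it was complete in 5, and 4 members shared no window. It was 60.4% for Hist1h3b, 58.0% for Hist1h2ab, 30.6% for Hist1h2bc, 28.9% for Hist1h4i and 8.54% for Hist1h1c. Reads mapping to several places were kept out of the gene counts and made up 5.34% to 6.08% of a library. The read length is not given in the sources used here, so the window is a description and not the loss of reads.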

How the data were processed

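Whole-number counts per Ensembl gene were deposited by the authors, 1 file for each of 8 samples. The submitters' processing notes name HTSeq, STAR 2.5.2b and the GRCm38 build without giving their roles, and the deposited layout is that of STAR's gene counts. The annotation release and read layout are not given in the sources used here. The 4 lines that name no gene, 14.7% to 21.95% of reads, stayed out of totals. Symbols, positions and transcripts came from GENCODE M21, which held 49412 of 49671 IDs.

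The opposite-strand column was filtered with filterByExpr (14887 genes), scaled by TMM and tested with the edgeR 4.0.16 quasi-likelihood test (robust) in R 4.3.3, with Benjamini-Hochberg adjustment over all genes tested and a threshold of 0.05. The SE is the log2 fold change divided by the square root of F. The script was tested on simulated data. Alternatives used RLE or upper-quartile factors, DESeq2 1.42.0, limma 3.58.1 voom with quality weights, other filters, the unstranded column, a replicate block and left-out libraries.

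The members and all lists were chosen with earlier results of these data known. Every called member, the 2 most abundant tested members of each type and up to 4 genes of each list by smallest p could be named. Zcchc6 of the processing list was not found by symbol. Figures were drawn with matplotlib 3.10.9.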

Additional observations from a re-analysis of the deposited data

Results flagged for a closer look

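In 52 groups of 4 libraries, each a named member or a sum within 1 group, 5 had a library far from the other 3 by Dixon's criterion, and chance alone gives about 1 in 20. BMPR2 DELX 4 had 40.0 CPM of Hist1h2bc, an H2B gene, against 24.4 to 26.6 CPM in the other BMPR2 DELX libraries. The same library had 0.268 CPM of Hist1h2bj, against 0.113 to 0.131 CPM in the others. Its summed H2B level, of which Hist1h2bc is the main part, was 45.1 CPM, against 28.3 to 30.8 CPM in the others. ROSA 4 had 1.46 CPM of Hist1h2ab, an H2A gene, against 3.08 to 3.11 CPM in the other ROSA libraries. BMPR2 DELX 3 had 0 CPM of the Hist4 gene, against 0.0564 to 0.0670 CPM in the other BMPR2 DELX libraries, all at or under 3 counts.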

How the results depend on the processing

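The number of members called lower was 7 and was 4 to 10 with 1 library left out, lowest without ROSA 2 and highest without BMPR2 DELX 4. It was 1 without ROSA 1 and ROSA 2, a setting chosen after seeing the data. No member was called higher (0) under any setting run. Over all genes 1355 were called (589 higher and 766 lower), 2298 with DESeq2, 477 to 1266 with 1 library left out, and 172 without ROSA 1 and ROSA 2. The cause of these changes was not tested. Hist1h3b, Hist1h2ab, Hist1h3i and Hist1h2be kept their calls in all 8 fits without 1 library, and Hist1h3b alone kept its call without ROSA 1 and ROSA 2. The log2 fold change of Hist3h2a turned to 0.0040 with upper-quartile factors, and was between -0.12 and 0.12 with 1 library left out.

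Whether the replicate numbers pair the samples is not given by the labels. Same-numbered samples had correlations of 0.0050, 0.210, 0.245 and 0.0935 in their deviations from the group means. Of the 4 numbers, 2 matched best with their own number. With 4 libraries per group these values neither show nor exclude a pairing. With the replicate number as a block 9 members were lower, with Hist1h4i (adjusted p = 0.0464) and Hist1h2bj (0.0451) added.

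The filter left 36 members untested, of which 16 share 80% or more of their 50-base windows with other transcripts, so low depth and reads lost to copies cannot be told apart. The sum of the Hist4 gene has no log ratio because a library is at 0. The log ratios of the other sums moved by less than the spread between libraries with the unstranded column or unscaled totals. Levels of single H2A genes did fall in the unstranded column. Over all libraries Hist1h2ab went from 478 to 194 counts and Hist2h2aa2 from 155 to 0 counts. The tested H2A genes went from 7 to 3 there, and their median log2 fold change from -0.54 to -0.02.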
